A study of Mus musculus with 16 samples.

Results

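The CD8+ T cells of the recipient's spleen 3 weeks after kidney transplantation were set against those of naive spleen. Cells were taken from the matrices that the authors had called CD8+ T cells, and a cell was kept when it held at least 1 unique molecular identifier (UMI) of Cd8a or Cd8b1 and none of Cd4, Cd79a, or Lyz2. This kept 6572 of 10572 cells, of which 2324 of 5891 (39.5%) came from recipient spleen and 4248 of 4681 (90.7%) from naive spleen. All 9 CD8 matrices of the series hold 72639 cells. Recipients were WT C57BL/6J (B6) mice whose own kidneys had been removed on both sides and replaced with a DBA/2J kidney, which they accepted without immunosuppression. DBA/2J and B6 are inbred strains that differ in their major histocompatibility genes. Naive mice had no transplant and are taken to be B6, as the paper does not state the strain of the naive spleen. Surgery, loss of the native kidneys, and the graft itself thus cannot be told apart in the comparison. Spleens were mashed, red cells were lysed, and viable CD45+ cells, that is, blood-derived cells, were sorted and profiled by droplet 3′ scRNA-seq. Library tags in the cell barcodes split each matrix into 5 libraries. The methods give 5 recipients at 3 weeks, whereas the number of naive mice is not given in the sources used here, so p-values measure the spread between libraries.

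Cytotoxic CD8+ T cells recognize peptides on MHC class I molecules. In the spleen of an unimmunized mouse most are naive cells, which keep a program of quiescence and homing, beside a smaller pool of memory cells, including virtual memory cells that carry CD122 (encoded by Il2rb) and CD44 without having met a foreign antigen. Memory CD8+ T cells store abundant Ccl5 mRNA, which encodes a chemokine, and transcribe cytotoxic genes more readily. A subset with CD122, the transcription factor Helios (Ikzf2), and inhibitory receptors of the Ly49 (Klra) family has been described as regulatory. Signals through the T cell receptor, cytokine receptors, or cell handling induce immediate early genes within minutes, whereas type I interferon induces the interferon-stimulated genes.

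The recipient libraries held 1655189 to 2598789 UMIs of selected cells and the naive libraries 3289394 to 4467727. Median UMIs per cell were 4141 in recipients and 4303.5 in naive mice, and the library medians did not differ beyond their spread (exact permutation p = 0.762, n = 5 against 5, two-sided). A UMI of a CD3 chain or its partners was present in 99.4% of selected recipient cells and 99.6% of naive cells (means of libraries), as the name of the matrices requires. Before selection the matrices were unlike. A CD8 UMI was present in 46.8% of recipient matrix cells and 96.1% of naive matrix cells, and 20.5% of recipient cells had a Cd4 UMI and no CD8 UMI against 0.790% of naive cells. The makeup of the cells called CD8+ T cells thus differed between the groups. On the first principal component of the selected cells, recipient 1 lay at −3.31 and the other recipients between −20.1 and −17.0, while the naive libraries lay between 11.8 and 17.6. The labels name no batch or date, so a within-batch value could not be given.

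Selected CD8+ cells made up a smaller part of the sorted spleen in recipients, and so did those among them without a Ccl5 UMI. As a share of all CD45+ barcodes of the same library, selected cells were 6.22, 4.91, 4.55, 5.01, and 4.46% in the recipient libraries and 9.37, 8.48, 8.13, 9.48, and 9.50% in the naive libraries. Every recipient library was below every naive library, with means of 5.03% ± 0.705 and 8.99% ± 0.640 (SD, n = 5 each, exact permutation p = 0.00794, two-sided, the smallest that 5 against 5 can give). Cells without a Ccl5 UMI were 3.57% ± 0.400 of CD45+ barcodes in recipients and 7.41% ± 0.611 in naive spleen (exact permutation p = 0.00794, n = 5 each). Cells with a Ccl5 UMI were 2.01, 1.30, 1.24, 1.45, and 1.28% in recipients and 1.51, 1.34, 1.64, 1.48, and 1.93% in naive spleen. These values overlapped, with means of 1.46% ± 0.317 and 1.58% ± 0.224 (exact permutation p = 0.484, n = 5 each), which does not show that the shares were equal. Recipient 1 was high, and without it the recipient mean was 1.32% and the p of the exact permutation test 0.0317, a choice made after seeing the data. Within the selected cells, 28.8% ± 2.21 held a Ccl5 UMI in recipients and 17.6% ± 2.42 in naive spleen (exact permutation p = 0.00794, n = 5 each). In the naive spleen, 5014 CD45+ cells met the cell rule and 84.7% of these were in the CD8 matrix. The same count was not made for recipients here, so the share left out of the CD8 matrix there was not analysed here. The whole CD8 matrix, as the authors drew it, went the other way, with 11.8 to 13.4% of CD45+ barcodes in recipients and 9.03 to 10.5% in naive spleen (exact permutation p = 0.00794, n = 5 each), and how far the lower share of selected cells depends on where that matrix was drawn in each group was not tested.

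**Figure D1:**
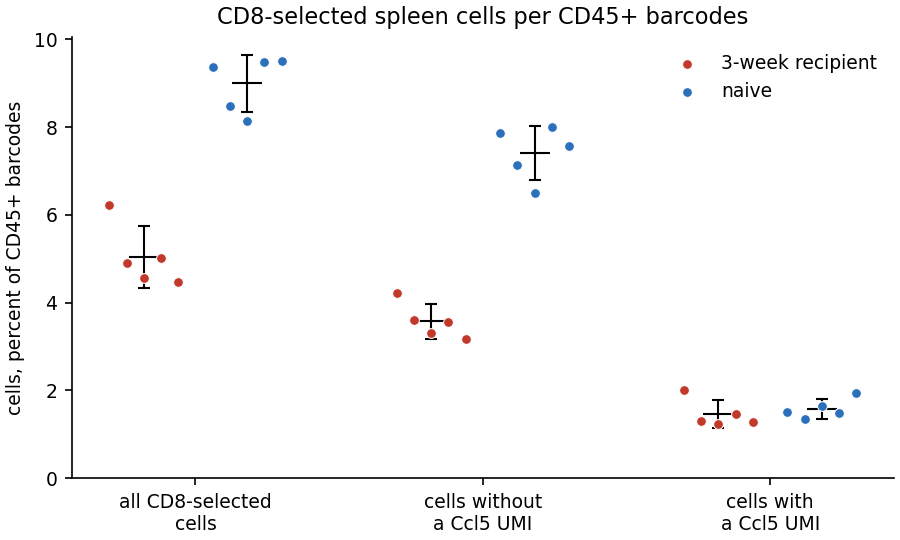
Cells kept by the CD8 rule as a percent of the CD45+ barcodes of their library (y axis), for all selected cells, cells without a Ccl5 UMI, and cells with one. Points are the 5 libraries of each group, and black bars give mean ± SD; recipient and naive libraries separate for all cells and for cells without Ccl5 and overlap for cells with Ccl5.

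UMIs were then summed per library and scaled to CPM, a gene's share of the UMIs of its library, and the groups were compared by edgeR with a threshold of 0.05 on the adjusted p. Of 9140 genes tested, 909 (9.95%) were called, 453 (4.96%) higher and 456 (4.99%) lower in recipients. The balance of directions depended on single libraries and on the test, with 578 higher and 717 lower without recipient 1, 360 and 288 without recipient 2, and 414 and 271 by DESeq2 (60.4% of the called genes higher). Among the called genes 113 changed more than 2-fold, 90 upward and 23 downward. Memory genes, immediate early genes, and receptors of the natural killer gene complex were among all the genes called higher, and interferon-stimulated genes, none of which fell more than 2-fold, were among those called lower. The median log2 fold change of all tested genes was −0.02. A count of reads per cell population cannot separate more cells of a type from more RNA in each cell, which holds for every value that follows. Of the genes tested, 692 (7.57%) had libraries that did not overlap between the groups.

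Genes of memory and virtual memory CD8+ T cells took a larger share of the UMIs of selected cells in recipients. Cells with a Ccl5 UMI were 28.8% of selected cells in recipients and 17.6% in naive spleen, but 1.46% and 1.58% of CD45+ barcodes. How far the memory values depend on fewer cells without Ccl5, or on where the CD8 matrix was drawn, was not tested. Of all genes tested, 4.96% were higher and 4.99% lower. Of 38 tested list members, 26 were higher, 1 was lower, and 11 were not called, with a median log2 fold change of 0.56. Ccl5 stood at 2391, 1897, 1522, 1678, and 1754 CPM in the recipient libraries and at 578, 625, 570, 511, and 978 CPM in the naive libraries. Even the lowest recipient was above the highest naive library, naive 5. The difference was 2.84-fold (log2 fold change 1.50, SE 0.119, edgeR adjusted p = 8.52e-11). Il2rb, which encodes the receptor chain shared by interleukin 2 and interleukin 15, was 208, 173, 193, 161, and 208 CPM in recipients and 115, 90.0, 101, 85.5, and 123 CPM in naive spleen. The groups were again apart, by 1.84-fold (log2 fold change 0.88, SE 0.0897, edgeR adjusted p = 2.23e-08). S100a6, a calcium-binding protein of memory and effector T cells, was 144, 109, 93.3, 134, and 134 CPM against 40.5, 33.4, 48.6, 34.5, and 57.0 CPM, a log2 fold change of 1.52 (edgeR adjusted p = 6.84e-11). Nkg7, a granule protein, moved less, from a mean of 467 CPM to 648 CPM (log2 fold change 0.47, edgeR adjusted p = 6.63e-05). The log2 fold changes of other members were 1.47 for Anxa2, 1.50 for S100a4, 0.62 for the chemokine receptor Cxcr3, 0.57 for Cd44, and 0.36 for Ly6c2, all called. Cd48, an adhesion molecule of the same list, was the member that was lower (log2 fold change −0.52, edgeR adjusted p = 7.12e-05). Eomes, the transcription factor of virtual memory cells, was 55.4 CPM in recipients and 48.6 CPM in naive spleen and was not called (edgeR adjusted p = 0.289). Leaving out single libraries gave 22 to 27 higher members, cells thinned to 1000 UMIs gave 14 of 30 tested, and cells without a B cell marker UMI, where fewer genes passed the filter, gave 7 of 22. Of all genes tested in the last 2 settings, 2.32% and 1.85% were higher.

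**Figure D2:**
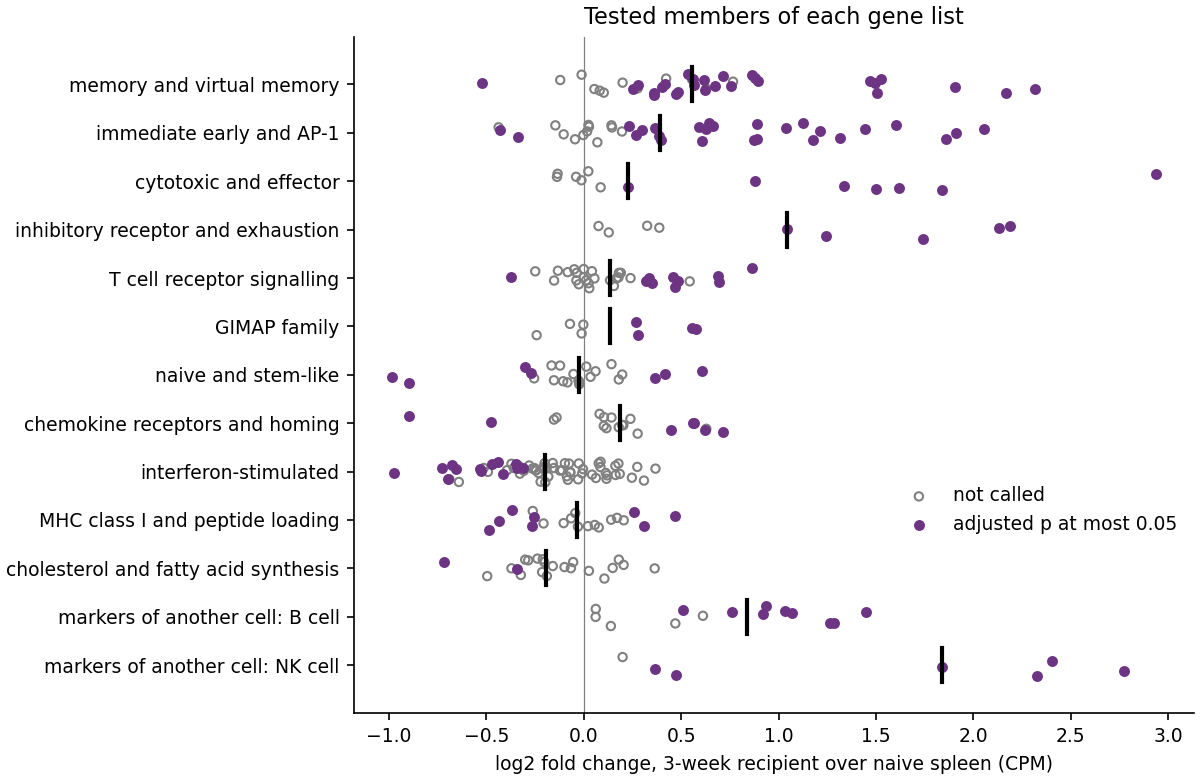
Log2 fold change of recipient over naive spleen (x axis) for every tested member of 11 gene lists and of B cell and NK cell markers (y axis). Filled points passed an adjusted p of 0.05, open points did not, and a black line marks each list's median; the memory and immediate early lists lie mostly to the right of 0 and the interferon list mostly to the left.

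Splitting the cells by a Ccl5 UMI asked how much of the change was present in each class. Ccl5 is itself a called member of the memory list, so its change also decides which class a cell enters. In the class with Ccl5 its level still differed, at 5617 CPM in recipients and 3119 CPM in naive spleen. The classes thus need not hold like cells in the groups. The classes held 667 and 1657 recipient cells with and without Ccl5 and 746 and 3502 naive cells. Cells with few UMIs can miss Ccl5 by sampling, and median UMIs were 4845 and 5302 in cells with Ccl5 against 3914 and 4172 in cells without it, recipients first. Of 8592 genes tested in cells without Ccl5, 515 (5.99%) were called, 228 (2.65%) of them higher, and of 6124 tested in cells with Ccl5, 214 (3.49%), 156 (2.55%) of them higher. The lower ones were 287 (3.34%) without and 58 (0.947%) with Ccl5. Each class holds fewer cells than the whole. Fewer memory genes were called in it, and the median change was smaller than the 0.56 over all selected cells. In cells without Ccl5, 8 of 28 tested members were higher and 1 lower (median log2 fold change 0.14), and in cells with Ccl5, 11 of 36 were higher and 1 lower (median 0.21). Il2rb had log2 fold changes of 0.34 without Ccl5 and 0.68 with Ccl5, and the difference between these was not called (edgeR adjusted p = 0.340). Cd44, Cxcr3, and Ly6c2 were called in neither class. Without and with Ccl5, Cd44 had log2 fold changes of 0.33 and 0.11, against 0.57 over all cells. Cxcr3 had 0.11 and 0.23, against 0.62 over all cells. S100a6 (log2 fold changes 1.32 and 0.91) and Anxa2 (0.95 and 1.30) were called in both. Of the 6086 genes tested in both classes, 124 were called in both and all of these had the same direction, 83 upward and 41 downward. They were 29.0% of the 427 genes called without Ccl5 and 63.3% of the 196 called with it.

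Few genes were called for a change that differed between the classes. The limit that the classes need not hold like cells applies here too. The interaction of group and class, with library as a block, called 9 of 7594 genes (0.119%), 7 (0.0922%) with a larger and 2 (0.0263%) with a smaller log2 fold change in cells with Ccl5. Ikzf2, which encodes Helios, was 66.2, 50.6, 55.7, 61.0, and 60.3 CPM in recipients and 15.0, 27.7, 28.3, 32.7, and 20.4 CPM in naive spleen over all selected cells, without overlap. Its log2 fold change was 1.24 over all cells (SE 0.136, edgeR adjusted p = 7.78e-08), 0.66 without Ccl5, and 1.67 with Ccl5, with a difference of 1.01 (edgeR adjusted p = 0.00196). Ly6a, which encodes the surface protein Sca-1, went the other way. It was higher without Ccl5 (log2 fold change 1.08) and −0.10 with Ccl5, a difference of −1.18 (edgeR adjusted p = 0.00196). Ahnak, a scaffold protein of memory cells, changed by −0.01 without and 0.48 with Ccl5, and Dusp2, a phosphatase that restrains MAP kinases, by 0.74 and 1.21.

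**Figure D3:**
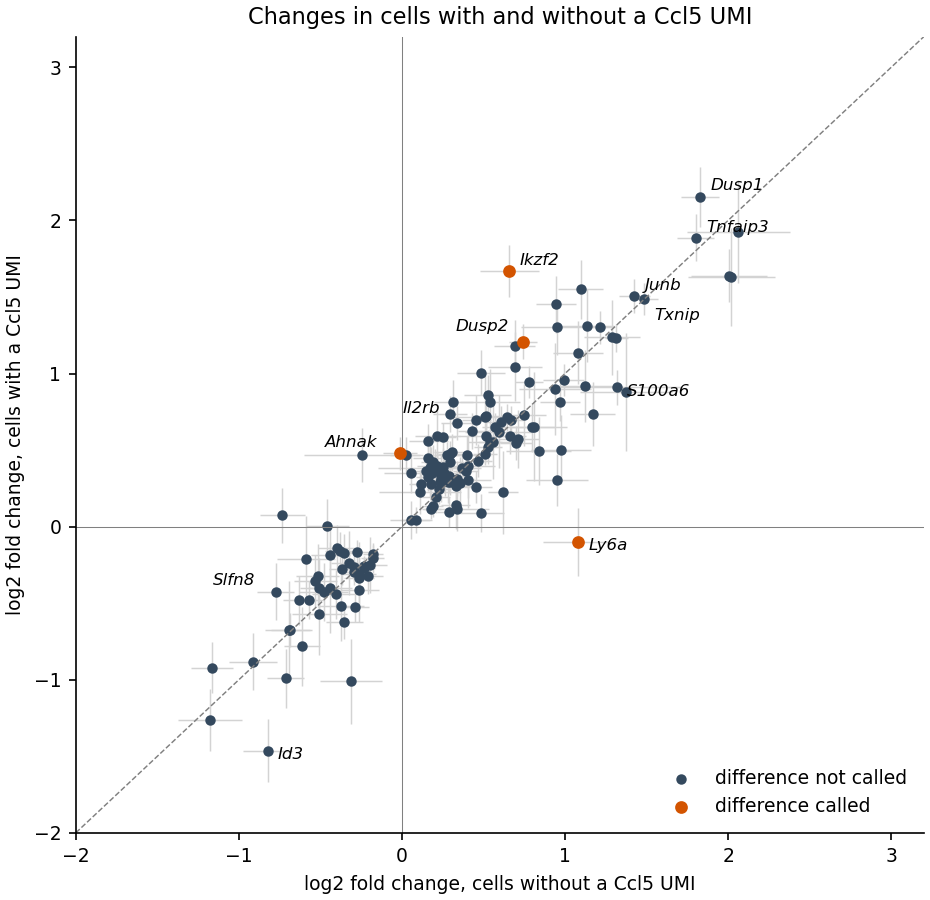
Log2 fold change of recipient over naive spleen in cells without a Ccl5 UMI (x axis) and with one (y axis), for the 153 named or listed genes that were called in all selected cells and tested in both classes. Grey bars are standard errors and the dashed line marks equal change; orange marks the 4 plotted genes whose difference was called, among them Ikzf2 above the line and Ly6a below it.

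Receptors of the natural killer gene complex, which memory CD8+ T cells share with NK cells, showed some of the largest ratios. Klrc2, a subunit of the NKG2 receptors, was 41.6, 27.9, 28.4, 21.8, and 43.6 CPM in recipients and 8.11, 6.08, 7.21, 6.94, and 8.10 CPM in naive spleen. Its log2 fold change was 2.17 (SE 0.173, edgeR adjusted p = 1.01e-10), and that of Klrc1, the inhibitory NKG2A, was 1.90. The Ly49 genes were singled out after their values were seen. Klra7 was 18.5, 12.3, 15.5, 21.1, and 32.7 CPM in recipients and 2.62, 1.82, 4.54, 3.13, and 3.91 CPM in naive spleen (log2 fold change 2.60, edgeR adjusted p = 5.53e-09). Each recipient library was above all naive libraries. Klra6 had means of 10.5 and 2.23 CPM and Klra1 of 9.47 and 0.431 CPM. Members of this family are near-identical in sequence, so how reads were split among them is uncertain. Klrk1 (NKG2D) was higher by a log2 fold change of 0.90, while Klrd1 (CD94), which pairs with the NKG2 chains, had −0.12 and was not called (edgeR adjusted p = 0.423).

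Counted by cell, a UMI of any of 11 Klra genes was present in 7.85% ± 1.71 of selected recipient cells (SD, n = 5, range 6.46 to 10.7%) and 3.11% ± 0.501 of naive cells (range 2.49 to 3.85%). With each cell thinned to 1000 UMIs, the shares were 3.25% ± 1.11 and 0.759% ± 0.218. Most of these cells carried Ccl5, 93.4% in recipients and 76.7% in naive spleen. Among cells with Ccl5 the Klra share was 25.6% ± 2.94 in recipients and 13.2% ± 3.14 in naive spleen, with ranges of 21.6 to 28.5% and 9.26 to 17.8%. Among cells without Ccl5 it was 0.693% (range 0 to 2.42%, recipient 1 the highest) and 0.897% (range 0.276 to 1.24%). As above, the class with Ccl5 need not hold like cells in the groups. In total 183 recipient and 133 naive cells held a Klra UMI. Of these, 38.3% of recipient cells and 12.8% of naive cells also held an Ikzf2 UMI, against 9.67% and 6.44% of the cells without Klra. Il2rb UMIs were found in 89.1% and 74.4% of Klra cells, against 33.3% and 26.2% of the cells without Klra. The memory genes Ly6c2 (85.2% and 91.0%, against 40.4% and 36.9%) and Cd44 (38.8% and 32.3%, against 9.57% and 7.80%) were also more frequent in Klra cells. The measure was chosen after the data were seen and was not tested.

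NK cells and γδ T cells also carry these receptors. Among Klra cells, a Cd8b1 UMI was present in 81.4% of recipient and 95.5% of naive cells, against 95.7% and 98.4% of cells without Klra. The cell rule required a Cd8a or Cd8b1 UMI, so it sets this share in part, and the share alone cannot tell the cells from NK or γδ T cells. Among selected cells with a Cd8b1 UMI, a Klra UMI was present in 6.67% ± 1.92 of recipient cells (range 4.80 to 9.89%). In naive cells it was 3.02% ± 0.397 (range 2.52 to 3.58%), and this difference was not tested. A Trac UMI, from the constant part of the αβ T cell receptor, was in 80.9% and 82.0% (71.9% and 72.1% without Klra). A Trdc UMI, from the δ chain, was in 4.92% and 0.752% (2.76% and 1.36% without Klra). Ncr1, a defining receptor of NK cells, was found in 1 of 183 and 0 of 133 Klra cells. Over all selected cells, 10.0% of recipient and 3.51% of naive cells held a UMI of an NK or γδ T cell marker. In a fit without those cells, chosen after seeing the data, Klra7 had a log2 fold change of 1.77 (edgeR adjusted p = 0.00375), Klrc2 1.48, Klrc1 1.32, Ikzf2 0.84, Il2rb 0.62, and Ccl5 1.14, all called. The memory list had 19 higher and 1 lower of 37 members tested, where 3.61% of all 9004 genes tested in that fit were higher and 4.35% lower. The set of markers removed includes Klra8 and Klre1, which lie in the same gene complex.

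**Figure D4:**
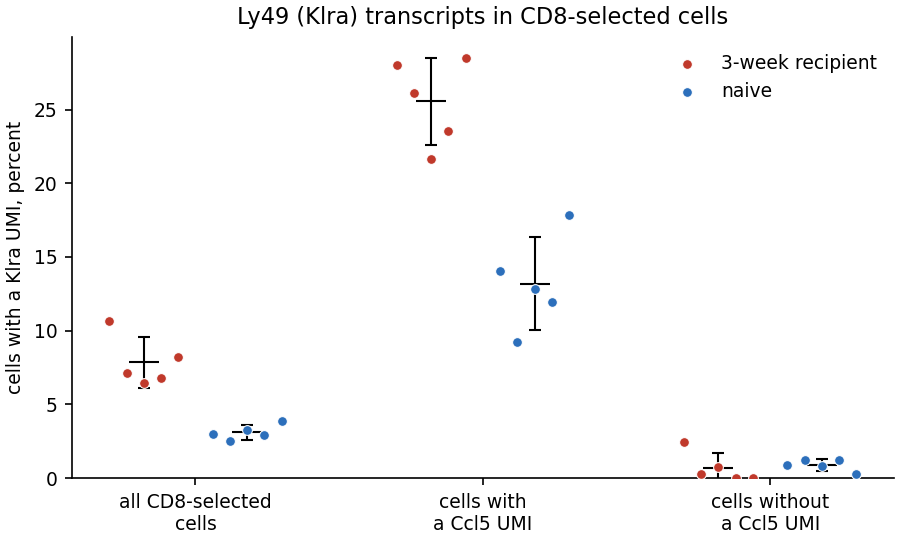
Percent of cells with a UMI of any Klra (Ly49) gene (y axis) among all selected cells, cells with a Ccl5 UMI, and cells without one. Points are libraries and black bars mean ± SD, drawn down to 0 at most; recipient libraries lie above all naive libraries in the first 2 groups.

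Immediate early genes and their feedback regulators formed the second large group, and they were higher in cells with and without Ccl5. Of 38 tested members, 24 were higher and 2 lower in all selected cells (median log2 fold change 0.39). In cells without Ccl5 18 of 36 were higher, and 17 of 32 in cells with it. Of all genes tested, 4.96%, 2.65%, and 2.55% were higher in the same order. The 2 lower members are near the 4.99% of all genes that were lower and are no result about the list. Junb, a subunit of the AP-1 transcription factor, was 539, 605, 492, 499, and 496 CPM in recipients and 204, 170, 257, 188, and 147 CPM in naive spleen. It stood 2.72-fold higher (log2 fold change 1.45, SE 0.0957, edgeR adjusted p = 1.04e-12), with 1.42 and 1.51 in cells without and with Ccl5. Dusp1, a phosphatase that switches off MAP kinases, was 82.3, 88.4, 79.9, 84.6, and 67.1 CPM against 20.7, 21.6, 24.3, 25.5, and 14.5 CPM. This was the largest rise under the rule for named genes of at least 50 CPM, 3.75-fold (log2 fold change 1.91, SE 0.112, edgeR adjusted p = 7.69e-14). Tnfaip3, which encodes the NF-κB inhibitor A20, was 120, 142, 186, 144, and 131 CPM against 47.2, 40.7, 46.5, 34.9, and 29.3 CPM (log2 fold change 1.86, edgeR adjusted p = 1.10e-13). The groups did not overlap for any of these genes.

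Zfp36l2, an RNA-binding protein that promotes mRNA decay and quiescence, was 564 to 683 CPM in recipients and 237 to 279 CPM in naive spleen (log2 fold change 1.32, edgeR adjusted p = 1.01e-14). Fos ranged from 114 to 187 CPM and from 44.3 to 89.8 CPM (log2 fold change 1.04), and Jun from 234 to 333 CPM and from 133 to 199 CPM (0.63). Feedback regulators were among those that rose, with log2 fold changes of 2.06 for Dusp5, 0.87 for Dusp2, 1.12 for Rgs2, 1.21 for Rgs1, and 0.89 for Nfkbiz. So was Nr4a1 (1.60), a nuclear receptor that responds to T cell receptor signals. Its relatives Nr4a2 (2.19) and Nr4a3 (1.04) were higher too, but they stand on the inhibitory receptor and exhaustion list and are not among the 24. Not all members followed. Egr1 (log2 fold change −0.10), the NF-κB inhibitor Nfkbia (0.14), and the activation receptor Cd69 (0.20) were not called, and Myc (−0.43) and Zfp36 (−0.34) were lower. The lower calls numbered 0 without naive 3 or recipient 3 (edgeR) and 1 without naive 2, naive 4, recipient 2, recipient 4, or recipient 5. The number of higher members was 22 to 24 when any single library was left out. It was 18 of 30 tested with cells thinned, and 15 of 26 in cells without a B cell marker UMI. Of all genes tested in those cell sets, 2.32% and 1.85% were higher. Junb, Dusp1, Tnfaip3, and Zfp36l2 were called in each of 22 settings.

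Txnip, which encodes a glucose-responsive and glucocorticoid-responsive inhibitor of thioredoxin, was 572, 548, 801, 721, and 799 CPM in recipients and 233, 231, 243, 248, and 257 CPM in naive spleen. The gap was 2.83-fold (log2 fold change 1.50, SE 0.0860, edgeR adjusted p = 5.21e-14), and the log2 fold change was 1.49 both without and with Ccl5. Among the 12 tested glucocorticoid-responsive genes, 4 were higher and 1 lower, where 4.96% and 4.99% of all genes tested were. The circadian gene Per1 (log2 fold change 1.43), Klf9 (1.99), and Tsc22d3, which encodes the glucocorticoid-induced leucine zipper (0.43), were the other higher ones, and Sgk1 (−0.36) was the lower one, a call lost without naive 2, naive 3, naive 5, recipient 2, recipient 4, or recipient 5. With cells thinned to 1000 UMIs Txnip was the 1 higher member of 9 tested, and in cells without a B cell marker UMI Txnip and Tsc22d3 were the 2 of 8. Of all genes tested in those cell sets, 2.32% and 1.85% were higher. Of 9 tested clock genes, Per1 and Bhlhe40 (1.94) were higher and 7 were not called.

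**Figure D5:**
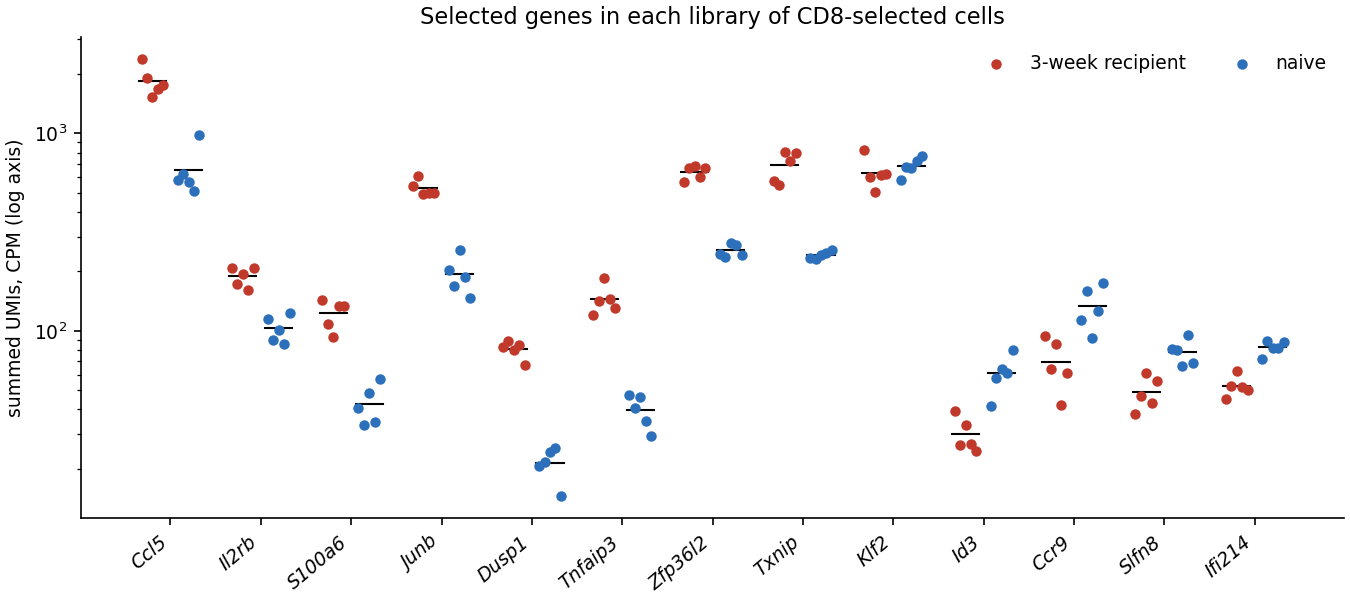
CPM of 13 genes (x axis) in each library of selected cells (y axis, log scale), recipients in red and naive in blue, with a black line at each group mean. Recipient libraries lie above naive ones from Ccl5 to Txnip and below for Id3, Slfn8, and Ifi214, while Klf2 and Ccr9 overlap.

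Sequence just upstream of the start of genes that moved is shown for 2 members of the immediate early list, because motifs of signal-dependent transcription factors lie there. The 250 bases before the RefSeq start on GRCm38.p6 are given 5′ to 3′ on the gene's strand, Dusp1 at chr17:26508473-26508722 (minus strand) and Tnfaip3 at chr10:19015411-19015660 (minus strand). Capitals mark the cAMP response element TGACGTCA in Dusp1, 143 bases before the start, and NF-κB motifs in Tnfaip3, 125 and 12 bases before the start.
Dusp1: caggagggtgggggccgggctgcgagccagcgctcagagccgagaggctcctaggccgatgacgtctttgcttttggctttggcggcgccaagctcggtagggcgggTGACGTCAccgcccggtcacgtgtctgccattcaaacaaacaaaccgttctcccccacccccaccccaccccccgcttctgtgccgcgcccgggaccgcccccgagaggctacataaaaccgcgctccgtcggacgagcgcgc
Tnfaip3: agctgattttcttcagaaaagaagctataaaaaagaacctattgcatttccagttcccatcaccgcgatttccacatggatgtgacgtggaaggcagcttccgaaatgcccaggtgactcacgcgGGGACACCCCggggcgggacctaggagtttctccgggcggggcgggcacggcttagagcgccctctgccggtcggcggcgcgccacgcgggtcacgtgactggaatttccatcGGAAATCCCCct
In windows of this length the first motif occurs in 3.40% and the second in 10.2% of the 7244 tested genes with a RefSeq promoter, counting both strands. Only 29 of 38 tested list members had such a window, so shares over the list are void. A match is a description of the letters and not a bound site.

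Over all selected cells, interferon-stimulated genes were lower in recipient spleen or not called. Of all genes tested there, 4.99% were lower by edgeR. Of 66 tested members 13 were lower and 0 higher by edgeR (median log2 fold change −0.20), with 29 lower and 3 higher at an unadjusted p under 0.05, and DESeq2 called 7 lower and 0 higher. In cells without Ccl5 8 of 64 were lower, where 3.34% of all genes were. In cells with Ccl5 0 of 50 were lower (edgeR, 11 lower and 1 higher at an unadjusted p under 0.05), which is near the 0.947% of all genes and is no result about the list. The interaction of group and class called 1 of 60 tested members, with a smaller log2 fold change in cells with Ccl5, and 0 with a larger one. Of all genes in that test 0.0263% had a smaller one, and 1 gene does not show a difference for the list. Slfn8, of the Schlafen family, was 37.7, 46.8, 60.9, 42.9, and 55.7 CPM in recipients and 80.8, 80.3, 66.5, 94.9, and 68.4 CPM in naive spleen. Recipient 3 came close to naive 3 without reaching it (log2 fold change −0.70, SE 0.113, edgeR adjusted p = 6.53e-05). Ifi214, a member of the cluster of interferon-inducible nucleic acid sensors, was 45, 52.5, 62.9, 52.0, and 49.9 CPM against 72.2, 88.8, 81.7, 81.9, and 87.7 CPM (log2 fold change −0.66, edgeR adjusted p = 7.45e-06). Ifit1, which binds foreign 5′ ends of RNA, was 5.0 to 9.28 CPM against 12.1 to 16.7 CPM (log2 fold change −0.97, edgeR adjusted p = 0.000995). Other lower members were Slfn5, Tgtp2, Irgm2, Rtp4, Ifit2, Ifi209, Gbp8, Gbp9, Irf9, and Ifit1bl1, between −0.73 and −0.31. Ifit3 (−0.39), Isg15 (−0.20), and the most abundant members Shisa5 (0.06) and Ly6e (0.18) were not called. The count depended on the setting. It fell to 5 without recipient 2, to 8 without naive 4, and to 2 of 51 tested with thinned cells. Of all genes tested with thinned cells, 1.34% were lower. In cells without a B cell marker UMI it was 0 of 34 tested (3 at an unadjusted p under 0.05). Of all genes in that fit 0.636% were lower, so this 0 is no result about the list. Higher members numbered 3 without recipient 1, 10 beside 20 lower with all matrix cells, and 1 in cells without a B cell marker UMI, which was Igtp, an interferon-inducible GTPase. Of all genes tested in these fits, 6.16%, 14.7%, and 1.85% were higher in the same order, and 7.64% were lower with all matrix cells. The higher counts are thus near the shares of all genes and are no result about the list. In the cells without a B cell marker UMI, Slfn8 had −0.49 (edgeR adjusted p = 0.305) and Ifi214 −0.64 (0.0998).

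Promoter windows of the 3 lower genes described are shown because each holds the interferon-stimulated response element GAAANNGAAA on one strand or the other, marked in capitals. They lie at chr11:83020811-83021060 (minus strand) for Slfn8, chr1:173535958-173536207 (minus strand) for Ifi214, and chr19:34640639-34640888 (plus strand) for Ifit1, on the same build. The matches start 48 bases before the start in Slfn8, 79 in Ifi214, and 104 and 85 in Ifit1.
Slfn8: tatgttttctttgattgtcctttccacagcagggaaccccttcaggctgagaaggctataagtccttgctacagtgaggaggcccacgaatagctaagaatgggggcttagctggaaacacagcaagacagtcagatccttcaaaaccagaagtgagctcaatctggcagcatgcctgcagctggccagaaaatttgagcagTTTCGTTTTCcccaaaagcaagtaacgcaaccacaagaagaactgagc
Ifi214: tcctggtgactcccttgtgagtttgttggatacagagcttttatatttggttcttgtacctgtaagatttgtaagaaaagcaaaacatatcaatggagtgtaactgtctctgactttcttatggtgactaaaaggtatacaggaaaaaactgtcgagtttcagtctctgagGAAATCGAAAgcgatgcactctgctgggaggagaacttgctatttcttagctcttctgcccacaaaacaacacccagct
Ifit1: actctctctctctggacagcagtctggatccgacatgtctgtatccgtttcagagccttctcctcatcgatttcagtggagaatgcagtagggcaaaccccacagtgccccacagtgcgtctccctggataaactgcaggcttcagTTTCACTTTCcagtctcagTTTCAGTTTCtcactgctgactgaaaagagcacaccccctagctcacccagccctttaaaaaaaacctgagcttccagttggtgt
Of the tested genes with a window, 3.35% hold this motif, and only 52 of 66 tested interferon list members have a window, so shares over the list are void here too.

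MHC class I genes, many of them induced by interferon, did not move as a block. Of 20 tested genes 3 were higher and 5 lower, where 4.96% and 4.99% of all genes tested were. Leaving out single libraries gave 1 (without recipient 2) to 7 lower (without recipient 1) and 1 to 3 higher. Cells without a B cell marker UMI gave 0 of either by edgeR (4 lower and 3 higher at an unadjusted p under 0.05). Of all genes in that fit 1.85% were higher and 0.636% lower, so these 0 counts are near the share of all genes. Lower members also numbered 2 without naive 2, without naive 4, and with DESeq2, 3 without recipient 3, 4, or 5, and 1 with thinned cells. Higher members numbered 1 without naive 1, naive 5, recipient 3, or recipient 5 and with thinned cells. The classical H2-D1 was lower (log2 fold change −0.25, edgeR adjusted p = 0.0153), while H2-K1 (−0.10) and B2m (−0.03) were not called. Tap2, a subunit of the peptide transporter, was lower (−0.49), and H2-Q6 was higher (0.47), a gene whose near-identical neighbors make its read count uncertain.

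The study named Gzmb, Ifng, Pdcd1, Lag3, Tox, Fgl2, and Il2rb for these cells, so they are not independent of these samples. Gzmb, granzyme B, was 9.24, 10.4, 2.06, 4.83, and 3.44 CPM in recipients and 1.19, 1.22, 4.27, 1.34, and 2.23 CPM in naive spleen, from 64 and 39 UMIs in all. The groups overlapped, and the difference was called (log2 fold change 1.62, edgeR adjusted p = 0.00521). Ifng was 4.59 to 10.8 CPM against 1.43 to 3.95 CPM (log2 fold change 1.50, edgeR adjusted p = 0.000722), and it lost the call without cells of NK or γδ markers (0.91). Both genes were thus present at a few CPM in each group. Tox was 48.7 to 79.7 CPM against 50.7 to 64.2 CPM and was not called (log2 fold change 0.13, edgeR adjusted p = 0.480). Pdcd1 with 13 and 7 UMIs, Lag3 with 10 and 7, and Fgl2 with 26 and 11, recipients first, were too low to enter the fit across genes, so no fold change is given for them.

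Per cell, thinned to 1000 UMIs, 5 of 31 markers passed with a Benjamini-Hochberg adjusted p of 0.0492 from exact permutation tests of 5 against 5 libraries, the smallest adjusted value reached, and for each the groups did not overlap. Ccl5 was found in 23.2% ± 2.44 of recipient cells and 11.2% ± 2.16 of naive cells, and Il2rb in 14.5% and 7.64%. Nkg7 was found in 43.6% and 34.3%. In naive B cells, which should lack these genes and were thinned to the same number, the shares were 1.17, 0.397, and 0.516%. The AP-1 genes Fos (11.3% and 5.89%) and Jun (22.2% and 15.7%) were the other markers that passed, and B cells use both (15.3% and 28.2%). Without thinning 7 markers passed, each with an adjusted p of 0.0351 from the exact permutation test and without overlap. Of these, Ccl5 was in 28.8% and 17.6%, Il2rb in 37.5% and 27.9%, Fos in 34.9% and 20.2%, and Gzmm, granzyme M, in 6.63% and 4.54% of cells. Cxcr3 was in 9.23 to 13.1% against 5.27 to 8.03%. Gzmb was in 1.50% and 0.577% and Lag3, an inhibitory receptor, in 0.427% and 0.155%. For both the groups were barely apart. Lag3 was in 0.284% of recipient 4, from 1 UMI, and in 0.282% of naive 1, so 1 cell decided the lack of overlap. Gzmb was in 0.738% of recipient 3 and 0.681% of naive 3. Nkg7 (81.5% and 77.0%) and Jun (52.6% and 45.6%) overlapped between groups, as did Pdcd1 (0.493% and 0.159%, exact permutation, adjusted p = 0.246). In thinned cells Gzmb was in 0.649% and 0.205% (exact permutation, adjusted p = 0.123) with 0.160% in B cells, and Lag3 in 0.208% of recipient cells and in 0 naive cells, which allows up to 0.282 to 0.439% per naive library (exact permutation, adjusted p = 0.134), with 0.0105% in B cells. Fgl2 was in 0.215% and 0.0586% of thinned cells, no higher than in B cells beyond counting error (0.213%, 95% exact binomial interval 0.163 to 0.273%). These B cells came from naive spleen only, so they give no background for the recipient libraries. Without thinning, Fgl2 was in 0.886% and 0.255% of cells, with overlap (exact permutation, adjusted p = 0.148). Its UMIs were uneven between the classes, at 8.08 CPM in recipients and 1.37 CPM in naive spleen with Ccl5 against 0 and 0.410 CPM without Ccl5.

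Effector transcripts were called higher for part of the list. Over all genes tested, 4.96% were called higher and 4.99% lower by edgeR. Of 13 tested members 7 were called higher and 0 lower by edgeR, with 6 higher and 0 lower by DESeq2 and 0 lower at an unadjusted p under 0.05 by either, all of low abundance but Srgn. Fasl, the death receptor ligand, was 10.0, 11.8, 6.70, 6.04, and 9.75 CPM against 0.477, 1.22, 1.34, 1.57, and 1.12 CPM (log2 fold change 2.94, edgeR adjusted p = 3.46e-08). The chemokines Ccl4 (1.33) and Xcl1 (0.88) were higher too, and Gzma (1.84) was higher with overlap, from 7.22 to 91.7 CPM in recipients. In cells with Ccl5 5 of 12 tested members were higher, where 2.55% of all genes were. In cells without Ccl5 0 of 7 were called by edgeR (median log2 fold change −0.17, with 1 higher and 1 lower at an unadjusted p under 0.05). Of all genes without Ccl5 2.65% were higher, so this 0 is near the share of all genes. With thinned cells 1 of 7 tested members was called and without cells of NK or γδ markers 2 of 11. In cells without a B cell marker UMI it was 0 of 3 (edgeR, 0 at an unadjusted p under 0.05). Of all genes tested in these settings, 2.32%, 3.61%, and 1.85% were higher. The inhibitory receptor and exhaustion list had 5 higher members of 9 tested, which were Ikzf2, Nr4a2, Nr4a3, Maf (2.13), and Ctla4 (1.74). With thinned cells 1 of 4 tested was higher, and in cells without a B cell marker UMI 0 of 1 by edgeR (0 at an unadjusted p under 0.05). In Ctla4, which Foxp3+ CD4+ T cells also carry, recipient 5 at 2.30 CPM lay below the naive maximum of 4.54 CPM while the other recipients were at 12.7 to 14.4 CPM.

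Genes of the naive state were called in both directions. Of 23 tested members, 3 were higher and 4 lower, with a median log2 fold change of −0.03. Of all genes tested, 4.96% were higher and 4.99% lower. Id3, the inhibitor of E proteins that marks naive and long-lived cells, was 39.2, 26.5, 33.5, 26.6, and 24.7 CPM in recipients and 41.5, 57.8, 64.4, 61.1, and 79.6 CPM in naive spleen. Recipient 1 and naive 1 nearly met, and the other libraries were far apart (log2 fold change −0.98, SE 0.141, edgeR adjusted p = 1.08e-05). It was lower in both classes, by −0.82 without and −1.46 with Ccl5. Ccr9, a receptor for homing to the gut that recent thymic emigrants carry, was 42.3 to 94.7 CPM against 92.1 to 174 CPM (log2 fold change −0.90, edgeR adjusted p = 7.69e-05), with overlap. The transcription factors Tcf7 (0.06), Lef1 (0.03), and Klf2 (−0.11) and the receptors Il7r (−0.25) and S1pr1 (−0.15) were not called. Ccr7 had 0.20 over all cells (edgeR adjusted p = 0.0675) and was higher in cells without Ccl5 (0.32, edgeR adjusted p = 0.00572). Igfbp4 (0.42), the kinase Txk (0.37), and Socs3 (0.61) were the higher members.

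Of 33 T cell receptor signaling and survival genes, 9 were higher and 1 lower, where 4.96% and 4.99% of all genes tested were. The 1 lower gene is near the share of all genes and is no result about the list. Cblb, a ubiquitin ligase that dampens T cell activation, rose from 75.7 to 137 CPM on average (log2 fold change 0.87, SE 0.0743, edgeR adjusted p = 5.64e-10), with naive libraries at 69.6 to 83.0 CPM and recipients at 126 to 147 CPM. The survival factor Bcl2 rose from 315 to 509 CPM (0.69), and the kinase Pim1 (0.69) and the adaptors Bcl10 (0.48) and Malt1 (0.32) of the NF-κB path were higher. Themis, which sets signaling thresholds in thymocytes, was lower (−0.38, edgeR adjusted p = 0.000945). Of the 8 GTPases of the GIMAP family, which maintain lymphocyte survival, 4 were higher, among them Gimap6 (0.58) and Gimap5 (0.55), and 4 were not called. With the same 8 tested, 2 were higher with thinned cells, 2 in cells without Ccl5, and 1 in cells without a B cell marker UMI. The 9 higher signaling and survival genes became 4 in the last setting. Of all genes tested in these settings, 2.32%, 2.65%, and 1.85% were higher.

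Other falls among genes above 50 CPM lay outside these lists. Tent5a, a poly(A) polymerase, was 44.4 to 76.2 CPM against 91.3 to 163 CPM (log2 fold change −1.11, edgeR adjusted p = 1.73e-07), and Rgcc, a regulator of the cell cycle, 43.9 to 77.3 CPM against 91.5 to 110 CPM (−0.79). The transcripts Gm44175 (−0.87) and AI467606 (−0.82), of which little is known, followed. All of these were lower in cells without Ccl5 as well, by −1.17, −0.61, −0.91, and −0.71 in the same order.

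Markers of other cells moved with the group, where 4.96% of all genes tested were higher. B cell markers were higher in recipients for 9 of 14 tested genes, and their summed level was 486 to 892 CPM against 372 to 555 CPM, although Cd79a is at 0 by the cell rule. Cd74, which activated T cells also transcribe, was one of them (44.6 to 107 CPM against 14.3 to 38.5 CPM, log2 fold change 1.29, edgeR adjusted p = 7.56e-06). NK markers were higher for 6 of 7 (1059 to 1392 against 834 to 946 CPM), on a list that holds Nkg7, Gzma, and Txk, which CD8+ T cells also transcribe. The defining Ncr1 was found in 3 of 2324 and 9 of 4248 cells. The NK marker Klrb1c was found in 34 (1.46%) and 16 (0.377%) of these cells, and Fcer1g, of the NK and myeloid lists, had a log2 fold change of 2.77. γδ T cell markers were higher for 2 of 2 (18.4 to 35.1 against 3.34 to 13.6 CPM). CD4 T cell markers summed to 87.6 to 105 CPM against 59.4 to 79.9 CPM, with Cd4 at 0, and myeloid markers to 172 to 250 against 137 to 208 CPM, with Lyz2 at 0. A B cell marker UMI was present in 88.2% of recipient and 80.1% of naive selected cells. In the fit without those cells, also chosen after seeing the data, Ccl5 (log2 fold change 1.44), Il2rb (0.90), Junb (1.45), Dusp1 (1.62), Tnfaip3 (1.51), Zfp36l2 (1.34), and Txnip (1.59) were called at 3460 genes tested, of which 86 were called. The part of free RNA and doublets in the results was not tested beyond these fits.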

How the data were processed

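The authors mapped reads of CD45+ spleen cells with Cell Ranger to the build mm10 (per the submitters' processing notes, no version), filtered cells, named clusters in Seurat, and deposited raw UMI counts of the cells called CD8+ T cells. The filter limits are not given in the sources used here. Groups came from the sample labels and libraries from the barcode tags. At most 1 barcode was shared by any of 45 library pairs. The CD45+ barcodes served as denominators, and of the CD45+ matrices only that of naive spleen was used.

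Over the 17042 genes shared by both matrices, counts of selected cells were summed per library and tested with edgeR 4.0.16 (R 4.3.3, plain library totals, its filter on low counts, quasi-likelihood test, Benjamini-Hochberg adjustment, threshold 0.05). Genes of the cell rule, and Ccl5 in cells split by it, were left out. For marker shares, cells were thinned to 1000 UMIs (4 cells were shallower), and the shares were compared by two-sided exact permutation tests in scipy 1.17.1. No doublet caller was run. The tests were checked on simulated data with 200 genes changed. Of 1.5-fold changes, 65% were recovered over all selected cells, 65% without Ccl5, and 45% with Ccl5. For 2-fold changes these values were 93%, 90%, and 87%. False calls were 6 of 164, 12 of 167, and 12 of 144 in the same order. Intervals cover counting error only. DESeq2 1.42.0, other scalings, filters, and cell sets served as alternatives.

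The members, gene lists, and tests were chosen with earlier results of these data known. Named genes are the 8 called genes that rose most and the 8 that fell most on the log2 scale among those of at least 50 CPM in a group with libraries that did not overlap (mitochondrial, ribosomal protein, immunoglobulin, T cell receptor, sex-linked, and rule genes excepted), the genes the study names for these cells, and the 2 most abundant tested genes of each list. Other list members are given as examples. Promoter windows are from RefSeq (GRCm38.p6), and 79.3% of tested genes had one. Some genes that meet these rules are not reported here.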

Additional observations from a re-analysis of the deposited data

Results flagged for a closer look

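Some single libraries stood far from the rest of their group. Of 210 groups of 5 libraries examined, 10 had such a library, where chance gives about 1 in 20, or 10.5. Among genes, Ccl5 stood at 977.7 CPM in naive 5 (others 511.2 to 624.7), Tsc22d3 at 127.4 CPM in naive 2 (others 169 to 182.2), and mt-Co3 at 8045 CPM in recipient 3 (others 9687 to 10270). Recipient 1 had 46.34% of its matrix cells selected (others 37.51 to 38.44%), and its selected cells with a Ccl5 UMI were 2.006% of CD45+ barcodes (others 1.242 to 1.451%). Of thinned cells in naive 2, 2.782% held a Cd44 UMI (others 1.977 to 2.18%), 0.1464% a Tigit UMI, and 0.2928% an Fgl2 UMI. The last 2 rest on 1 and 2 of 683 thinned cells, and 0 thinned cells held them in the other naive libraries, which allows shares of up to 0.282 to 0.409%. Without thinning they did not stand apart in this way, with Fgl2 in 0.110 to 0.586% of cells in every naive library and Tigit in 0.146% in naive 2 and 0.116% in naive 4.

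The change between recipient and naive spleen differed between cells with and without a Ccl5 UMI for 9 genes, by the interaction test in edgeR. Among them, the log2 fold change was larger with Ccl5 by 0.484 for Ahnak, 0.464 for Dusp2, 4.27 for Fcer1g, 1.01 for Ikzf2, 3.58 for Klra7, 0.667 for Pik3r1, and 0.152 for Tmsb4x, and it differed by −1.18 for Ly6a. Klra7 was too low in cells without Ccl5 to be tested there alone, and Fcer1g in either class alone, at 25.3 CPM in recipients and 1.18 CPM in naive spleen with Ccl5 and 1.27 and 1.24 CPM without it.

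Cells left out by the rule were many in the recipient matrix. A Cd4 UMI without a CD8 UMI was found in 20.49% of its cells against 0.7904% of the naive matrix, and neither in 32.71% against 3.076%. Whether these are CD8+ T cells with too few UMIs was not tested.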

How the results depend on the processing

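No paired analysis was possible because the library tags of the recipient and naive groups are numbered separately and nothing pairs them. The main fit called 909 genes (453 higher, 456 lower), and separate fits gave other counts. DESeq2 called 685 (414 and 271) and all matrix cells gave 2202 (1450 and 752). Cells thinned to 1000 UMIs gave 205 (130 and 75), and cells without a B cell marker UMI 86 (64 and 22 of 3460 tested). The higher genes were 49.8% of the called ones, and 60.4% with DESeq2, 65.8% with all matrix cells, 63.4% with thinned cells, and 74.4% without B cell marker UMIs. Leaving out 1 library gave 648 to 1295 in all and 288 (without recipient 2) to 717 (without recipient 1) lower. In cells without Ccl5 it gave 342 to 783 in all and 161 to 441 lower (both without recipients 2 and 1), and in cells with Ccl5 42 (without recipient 5) to 110 (without recipient 1) lower, of 515, 287, and 58. Memory cells taken by Ccl5, Cxcr3, or Ly6c2 gave 330 called genes outside the class (171 lower) and 442 in it (263 higher, 179 lower). The 9 differences between classes became 5 to 15, 4 to 12 larger, and 1 to 3 smaller without 1 library, and smaller ones numbered 4 with TMM factors and 4 with that memory class. The 5 marker shares that passed became 0 when thinned to 500 UMIs and 0 without any 1 library, where the smallest exact p cannot pass the adjustment. Of 31 named genes called, 13 were called in all of 22 settings and 4 wherever they were tested. Nkg7 had a log2 fold change of −0.0112 in all matrix cells (edgeR adjusted p = 0.927), the only named change of sign. Pdcd1, Lag3, and Fgl2 were too low for a fold change.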

Other observations

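Some stress and temperature genes differed between the groups, and they were singled out after their values were seen. The cold-inducible RNA-binding proteins Rbm3 (379 to 566 CPM in recipients, 264 to 349 CPM in naive spleen, log2 fold change 0.65, edgeR adjusted p = 7.45e-06) and Cirbp (58.5 to 98.7 CPM against 34.3 to 53.7 CPM, 0.76) were higher. The inducible heat shock genes Hspa1b, with 2 UMIs in recipients and 266 in naive spleen, and Hspa1a, with 2 and 95 UMIs, were present almost only in naive libraries. These copies are near-identical, so the split of reads between them is uncertain. Of 18 tested heat shock genes 2 were higher and 3 lower, where 4.96% and 4.99% of all genes tested were. Gm42418, which overlaps ribosomal RNA, was 11167 to 14869 CPM in recipients and 4301 to 10035 CPM in naive spleen (log2 fold change 0.97), and Lars2 was higher too (0.92). The mitochondrial mt-Nd4l (−0.68) and mt-Atp8 (−0.43) were lower, and 2 of 13 mitochondrial genes were higher and 2 lower in all. The part of cell handling in these values was not tested.

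Over metabolic genes the shares called were read against 4.96% of all tested genes higher and 4.99% lower. Of 17 tested glycolysis and hypoxia genes 4 were higher, among them Gapdh (281 to 379 CPM on average, log2 fold change 0.43, edgeR adjusted p = 0.000151). These 4 became 2 without recipient 5, with thinned cells, and without cells of NK or γδ markers, and 1 in cells without a B cell marker UMI. Of 22 genes of cholesterol and fatty acid synthesis 2 were lower, which became 0 without naive 2 or recipient 4 (edgeR) and 1 without naive 1, naive 4, naive 5, recipient 2, recipient 3, or recipient 5. Of 87 oxidative phosphorylation genes 6 were higher and 1 lower, of 83 ribosomal protein genes 1 and 4, of 30 Myc targets 2 and 0, and of 11 cell cycle genes 1 and 0 by edgeR (1 and 0 lower at an unadjusted p under 0.05 for the last lists in turn, and 0 and 0 called lower by DESeq2). The 6 higher oxidative phosphorylation genes became 1 without recipient 4, 17 without recipient 1, 3 without naive 1, recipient 2, 3, or 5 and with thinned cells, 11 with TMM factors, and 0 in cells without a B cell marker UMI (edgeR, 4 at an unadjusted p under 0.05). Of all genes tested, 4.10% were higher without recipient 4, 6.16% without recipient 1, and 5.82% with TMM factors. In cells without a B cell marker UMI 1.85% were. Of 20 chemokine and homing receptors 5 were higher and 2 lower, one of which was Cxcr6, a receptor of tissue-resident cells, at 30.2 to 43.1 CPM against 43.9 to 57.8 CPM (log2 fold change −0.48, edgeR adjusted p = 0.00418). Cxcr6 had −0.73 in cells without Ccl5 and 0.07 in cells with it, a difference that was not called (edgeR adjusted p = 0.0634). Of 27 histone genes 3 were higher and 1 lower, and of 4 T cell receptor variable genes 1 was lower and 0 higher by edgeR (1 higher at an unadjusted p under 0.05). The CD8 T cell list had 1 higher and 3 lower of 11. Without recipient 1 the higher ribosomal protein genes numbered 6 and the lower ones 7, the higher histone genes 6, and the lower heat shock genes 5. Of all genes tested in that fit, 6.16% were higher and 7.64% lower, so the ribosomal protein counts are near the shares of all genes. The 5 higher chemokine and homing receptors became 0 with thinned cells by edgeR (4 at an unadjusted p under 0.05), where 2.32% of all genes were higher. Erythroid and platelet markers summed to 4.02 to 9.80 CPM in recipients and 8.51 to 132 CPM in naive spleen, and kidney markers to 4.23 to 7.46 and 1.95 to 6.41 CPM.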
